A study of Mus musculus with 7 samples.

Results

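The mitochondrial genome of the mouse encodes 37 genes, and all 37 were present as rows of the deposited tables. They were taken as every row whose name starts with mt-, which gave 13 protein-coding genes, 2 ribosomal RNA genes and 22 transfer RNA genes among 53083 genes that the tables of all 7 muscles share. The rule uses the names alone.

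The 13 proteins are core subunits of the respiratory chain: they sit in complexes I, III and IV, which pump protons, and in complex V, the ATP synthase. The genome is transcribed as long precursors from both strands, and excision of the tRNAs that lie between most of the other genes releases the mRNAs and rRNAs. Every other subunit, and every protein that copies, transcribes or translates this genome, is encoded in the nucleus. In skeletal muscle, slow and other oxidative fibres hold more mitochondria than fast glycolytic fibres.

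The samples were 7 tibialis anterior muscles, a mostly fast muscle of the lower leg, cut into consecutive cryosections, with barcoded polyA RNA libraries made from each section. The labels give 3 groups: WT with 2 muscles, Ctr with 2 and DMD with 3. The labels give no strain, age, sex or allele. The column headers carry the names pax7 for WT, hDMD for Ctr and mdx for DMD. The name mdx is the usual one of a dystrophin-deficient mouse strain, and nothing in the labels explains the other names or says whether muscles came from separate animals, so p-values measure only the spread between these samples. The WT tables were counted against another annotation than the Ctr and DMD tables, so for WT comparisons the group and the annotation cannot be told apart. Sections were ordered by the number in their column name, and the labels do not say which end of the muscle comes first.

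Total counts per muscle were between 11316565 and 41699100, and 422 of 525 sections were kept, with a median of 162485 to 654129 counts per kept section. Fibre markers (Ckm, Acta1, Myh4, Pvalb and 4 others) stood at 158500 to 189600 CPM of nuclear counts in every muscle, where CPM are counts scaled to the usual common library total. Summed macrophage markers (9 genes) reached 2140, 1735 and 329.7 CPM of nuclear counts in the DMD muscles and 93.2 to 134.2 in the others, and 6 matrix markers reached 3097, 3187 and 1384 against 443.6 to 1061. Summed slow or oxidative fibre markers (7 genes) were at 5178 and 5344 (WT), 3448 and 2660 (Ctr) and 1377, 1804 and 1261 (DMD), but 83.43% to 93.13% of that sum was Mb, myoglobin, which marks oxidative fibres of any speed. Myh7, the slow myosin, was at 0 in DMD replicate 2 and at most at 1.391 CPM of all counts elsewhere. Tnni1, a slow troponin, was at 2.356 to 14.85 CPM in DMD against 0.3028 to 2.045 in the others, so the list did not move in 1 direction. Every difference between groups below runs alongside these cell type markers, and their part in it was not tested. In sections of whole tissue, fewer cells of a type and less RNA per cell cannot be told apart.

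Not every read of these genes can be placed. A stretch of chromosome 1 (GRCm38, minus strand) holds 7 annotated pseudogenes that repeat part of the mitochondrial genome in the same order: Gm29216 (chr1:24615706-24616197), Gm28661 (chr1:24614885-24615565), Gm10925 (chr1:24613974-24614651), Gm28437 (chr1:24613189-24613971), Gm28438 (chr1:24612775-24613119), Gm10222 (chr1:24612407-24612700) and Gm28439 (chr1:24611535-24612410). They match the end of mt-Co1, then mt-Co2, mt-Atp6, mt-Co3, mt-Nd3, mt-Nd4l and the first 876 bases of mt-Nd4. Of these, 5 had no mismatch over 294 to 876 aligned bases, and the other two had 1 each. The pairs with a mismatch are shown because a read can be told apart only where it crosses the base in capitals (sequences from the GENCODE M21 transcripts, GRCm38):

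mt-Nd3, bases from MT:9459-9491, plus strand: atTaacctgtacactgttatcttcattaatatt

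Gm28438, bases from chr1:24613087-24613119, minus strand: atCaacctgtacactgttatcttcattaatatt

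mt-Co1, bases from MT:6390-6423, plus strand: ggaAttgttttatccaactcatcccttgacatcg

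Gm29216, bases from chr1:24616155-24616188, minus strand: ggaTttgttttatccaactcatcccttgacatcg

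Counted from 1 at the 5′ end of the mitochondrial transcript, these differences are T3C between mt-Nd3 and Gm28438 and A1066T between mt-Co1 and Gm29216. The counting gave each place of a multiply placed read an equal fraction, and the tables show the result: the count of Gm28661 over that of mt-Co2, of Gm28438 over mt-Nd3 and of Gm10222 over mt-Nd4l lay between 0.9991 and 1.0004 in all 7 muscles. For these pairs the mitochondrial row therefore holds only the fraction of its reads that the split left to it. The genes outside that stretch, such as mt-Nd1, mt-Cytb and both rRNAs, had no annotated partner of at least 99% identity. Some partners of lower identity carried counts too. The ratio to the gene's count was 0.0688 to 0.0941 for Gm13339 (mt-Nd2) and 0.0513 to 0.0954 for Gm11407 (mt-Nd5). It was 0.0525 to 0.114 for Gm13340 (mt-Co1) and 0.045 to 0.101 for Gm13341 (mt-Co2). For Gm11408 over mt-Nd6 the WT ratios were 0.106 and 0.227, the Ctr ratios 0.0253 and 0.0337, the DMD ratios 0.0475 to 0.0819. Whether such rows hold mitochondrial reads was not tested. Between their ends the matching genes span the places of mt-Td, mt-Tk, mt-Atp8, mt-Tg and mt-Tr too, for which no matching row was found. Whether their reads were also divided was not tested. For mt-Tg, the ratio of Gm28437 to mt-Co3 was highest where mt-Tg was highest. It was 1.013 and 1.012 in WT and 1.013 in DMD replicate 1, with mt-Tg at 414.4, 501.1 and 318.6 CPM.

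Mitochondrial rows took 41.6% and 45.94% of the counts in the WT muscles, 30.41% and 29.43% in Ctr, and 29.85%, 25.69% and 34.28% in DMD. Both WT muscles were above the other 5, and the Ctr muscles lay within the range of DMD. The mean was 43.8% ± 3.07 (SD, n = 2) in WT, 29.9% ± 0.694 (SD, n = 2) in Ctr and 29.9% ± 4.30 (SD, n = 3) in DMD. DMD exceeded Ctr by 0.0215 points (two-sided exact permutation test over muscles, p = 1, where the smallest possible p is 0.2). This difference took either sign when 1 muscle was left out, from -2.15 points without DMD replicate 3 to 2.15 without DMD replicate 2, and was -0.469 without Ctr replicate 2. It was 2.09 points for the protein-coding rows alone (exact permutation p = 0.8). DMD was 13.8 points below WT without overlap (difference of -13.8, exact permutation p = 0.2, the smallest the design allows). WT was 13.9 points above Ctr, also without overlap (exact permutation p = 0.333, the smallest possible). None of these comparisons can reach 0.05. With the 7 near-identical copies counted as mitochondrial, the shares were 53.56% and 59.38% (WT), 40.0% and 37.57% (Ctr) and 39.04%, 33.05% and 45.68% (DMD), in the same arrangement.

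Protein-coding rows made up most of the mitochondrial counts in all muscles. Their part of those counts was 93.87% and 96.0% (WT), 87.93% and 85.2% (Ctr) and 94.17%, 89.92% and 95.58% (DMD). The rRNA rows held 5.635% and 3.512% (WT), 11.64% and 14.45% (Ctr) and 5.465%, 9.691% and 4.251% (DMD). Both Ctr muscles stood above the other 5 in rRNA share and below them in protein-coding share. The 22 tRNA rows together held 0.171% to 0.495% of the mitochondrial counts. Rows on the minus strand, which are mt-Nd6 and 8 tRNAs, held 0.00947% to 0.0306%.

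**Figure D1:**
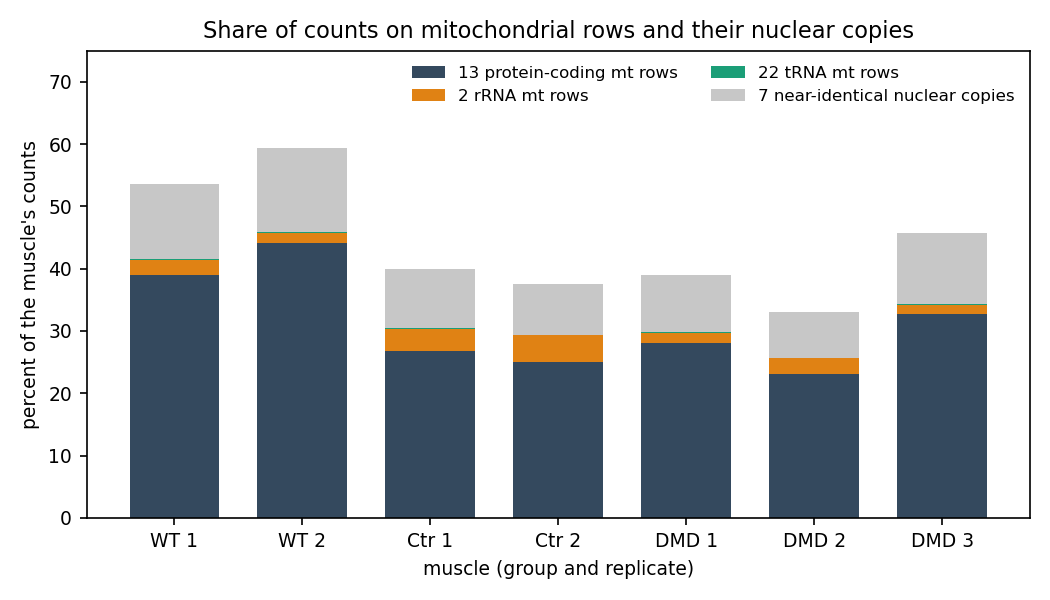
Stacked bars give the percent of each muscle's counts (y axis) on the 13 protein-coding, 2 rRNA and 22 tRNA mitochondrial rows and on the 7 near-identical nuclear copies, with 1 bar per muscle (x axis). Both WT bars are the tallest, and the rRNA segment is thickest in the 2 Ctr muscles, at 3.54% and 4.252% of counts.

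Levels of single genes are given as CPM of a muscle's counts over all shared genes, mitochondrial rows included, without further scaling. The 7 complex I genes, which encode membrane subunits of NADH dehydrogenase, covered a wide range. mt-Nd1, next to the rRNAs, was at 76370 and 90010 CPM (WT), 38300 and 44400 (Ctr) and 55880, 52990 and 44250 (DMD). WT was above every other muscle, and DMD and Ctr overlapped. mt-Nd2 was at 38540 and 45950 (WT), 15360 and 15170 (Ctr) and 23090, 13810 and 29920 (DMD), again with both WT muscles on top. mt-Nd4, split with a copy over its first part, was at 30820 and 36250 (WT), 17280 and 15040 (Ctr) and 22620, 14950 and 21680 (DMD). As for mt-Nd2, both Ctr muscles lay within the DMD range.

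mt-Nd5 showed another order: 24760 and 22620 CPM (WT), 21390 and 32890 (Ctr) and 13990, 17430 and 15670 (DMD). Here all 3 DMD muscles were below the other 4. mt-Nd6, the only protein-coding gene on the minus strand, was at 56.65 and 36.0 (WT), 46.17 and 50.51 (Ctr) and 30.68, 33.92 and 24.22 (DMD), and DMD was again lowest without overlap. Against the gene it overlaps on the other strand, mt-Nd5, it had 1.536 to 2.288 counts per 1000 in all muscles. mt-Nd3 was at 5547 and 7922 (WT), 4601 and 3703 (Ctr) and 6224, 3443 and 11490 (DMD), so that the highest and the lowest muscle were both DMD. mt-Nd4l was at 1125 and 1245 (WT), 1421 and 1403 (Ctr) and 745.7, 808.5 and 1234 (DMD). For that gene the Ctr muscles were the highest pair.

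mt-Cytb, the cytochrome b of complex III, had the most counts of all mitochondrial rows in every muscle: 94850 and 107000 CPM (WT), 75350 and 60280 (Ctr) and 70390, 55290 and 96990 (DMD). DMD replicate 3 reached the WT range. The 3 complex IV genes encode the catalytic core of cytochrome c oxidase. mt-Co1 was at 19140 and 19730 (WT), 16100 and 11910 (Ctr) and 14120, 11370 and 19220 (DMD). mt-Co2 was at 32000 and 33210 (WT), 37060 and 30870 (Ctr) and 27950, 26310 and 35110 (DMD), with all 3 groups overlapping. mt-Co3 was at 30760 and 40360 (WT), 23750 and 24190 (Ctr) and 23920, 19940 and 33980 (DMD). Complex IV thus varied less between groups than mt-Nd1 or mt-Nd2, a difference that was not tested.

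The 2 complex V genes overlap by 43 bases. mt-Atp6, the channel subunit of ATP synthase, was at 36200 and 36330 CPM (WT), 16530 and 10650 (Ctr) and 21990, 14450 and 17940 (DMD). mt-Atp8, a short neighbour that shares the same mRNA, was at 301.3 and 307.4 (WT), 178.7 and 149.7 (Ctr) and 136.7, 168.2 and 121.2 (DMD). In both genes WT was above the other 5 muscles. A read on mt-Atp8 was rare beside mt-Atp6: there were 3.104 to 7.004 counts of mt-Atp8 per 1000 of mt-Atp6 and its copy.

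The 2 rRNAs of the mitochondrial ribosome were highest in Ctr. mt-Rnr1 was at 9236 and 5956 CPM (WT), 11160 and 14780 (Ctr) and 6162, 6853 and 4565 (DMD). mt-Rnr2 was at 14200 and 10180 (WT), 24240 and 27750 (Ctr) and 10150, 18040 and 10010 (DMD). The WT and DMD ranges of both genes overlapped, and neither overlapped Ctr.

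Per kilobase, with the copy's counts added, the protein-coding genes spanned almost 3 orders of magnitude. In WT replicate 1, mt-Atp6 (106500 CPM per kilobase), mt-Co2 (93580), mt-Cytb (82910), mt-Nd1 (79800) and mt-Co3 (78990) led. Below them came mt-Nd2 (37130), mt-Nd3 (31880), mt-Nd4 (24560), mt-Co1 (19130), mt-Nd5 (13570) and mt-Nd4l (7577), and mt-Atp8 (1477) and mt-Nd6 (109.1) were the lowest. The leading gene per kilobase was mt-Atp6 in both WT muscles and mt-Co2 in the 5 others, where mt-Co2 stood at 76940 to 108400 and mt-Atp6 at 31380 to 64690. The reads were not spread evenly along genes: for mt-Co1, the copy's count puts 70.48% to 77.71% of the reads in the last 483 of its 1545 bases. Division by length therefore lowers long genes relative to short ones.

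**Figure D2:**
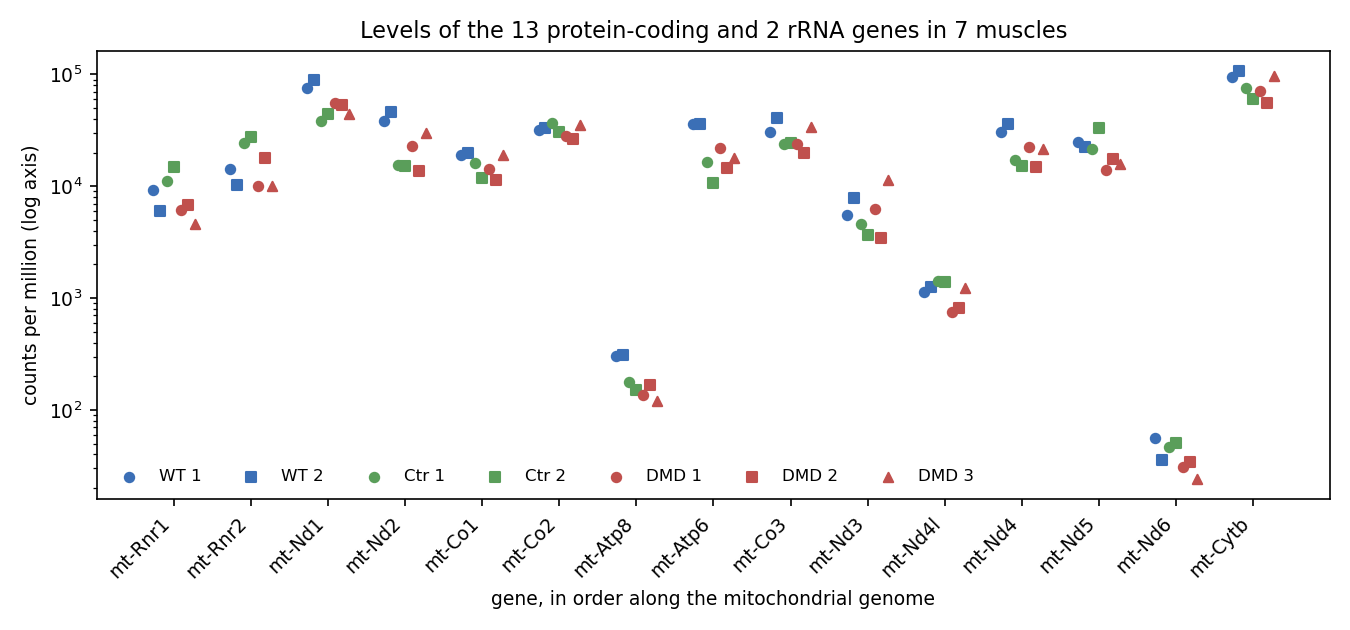
Each point is 1 muscle's level (CPM on a log axis) of 1 of the 13 protein-coding and 2 rRNA genes, in their order along the mitochondrial genome; colour gives the group and marker shape the replicate. Levels run from 24.22 CPM for mt-Nd6 to 107000 CPM for mt-Cytb, and both Ctr points lie above all others for the 2 rRNAs and mt-Nd4l.

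Of the 22 tRNA rows, the 5 with the highest mean level were mt-Ti (328.3 CPM), mt-Tm (302.8), mt-Tg (206.4), mt-Tw (164.8) and mt-Tv (133.9). At the other end mt-Ty, mt-Tc, mt-Tl2 and mt-Tf had means of 0.4197, 0.2901, 0.221 and 0.1374 CPM. Mature tRNAs lack a polyA tail, and a read that lies over a tRNA and the gene next to it was counted in part for each. The sequences of 5 tRNAs that the results below turn on follow, with bases in capitals where the row overlaps its neighbour on the same strand (GRCm38, plus strand, GENCODE M21):

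mt-Tl1, leucine, MT:2676-2750: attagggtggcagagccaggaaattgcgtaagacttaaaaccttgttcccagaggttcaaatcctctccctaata

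mt-Ti, isoleucine, MT:3706-3774: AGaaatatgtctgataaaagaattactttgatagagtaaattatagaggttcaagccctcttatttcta

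mt-Tm, methionine, MT:3845-3913: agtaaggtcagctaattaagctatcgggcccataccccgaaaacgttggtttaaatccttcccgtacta

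mt-Tw, tryptophan, MT:4950-5016: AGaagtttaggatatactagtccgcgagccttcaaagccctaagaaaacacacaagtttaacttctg

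mt-Tg, glycine, MT:9391-9458: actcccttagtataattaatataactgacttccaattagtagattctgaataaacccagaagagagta

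mt-Ti overlaps the end of mt-Nd1 by 2 bases and mt-Tw the end of mt-Nd2 by 2 bases. mt-Tl1 lies directly between mt-Rnr2 and mt-Nd1, mt-Tm directly before mt-Nd2, and mt-Tg directly between mt-Co3 and mt-Nd3, with 0 bases in between. mt-Tg was at 414.4 and 501.1 CPM (WT), 49.16 and 47.95 (Ctr) and 318.6, 61.1 and 52.22 (DMD). Replicate 1 of DMD was near WT, while the other two DMD muscles were near Ctr. The same 3 libraries (both WT and DMD replicate 1) had the most non-zero values that were not whole numbers, 24.24% to 26.18% against at most 20.99%. Their ratio of Gm28437 to mt-Co3 counts was also the highest, 1.012 to 1.013 against 1.001 to 1.003. That ratio is not separate from the mt-Tg count, because a read over mt-Co3 and mt-Tg was counted in part for each. These 3 libraries stand apart from the other 4 in a way that does not follow the group labels.

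Another feature separated the libraries along the line of the Ctr label. From the copy of mt-Nd4, the first 876 of its 1378 bases held 17.9% and 15.61% of the reads (WT), 32.46% and 40.29% (Ctr) and 14.79%, 24.46% and 16.49% (DMD). The order of the 7 muscles by this value was close to that by rRNA share: Ctr replicate 2, Ctr replicate 1 and DMD replicate 2 were the highest 3 in both. The part of this read position in the differences between DMD and Ctr was not tested.

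**Figure D3:**
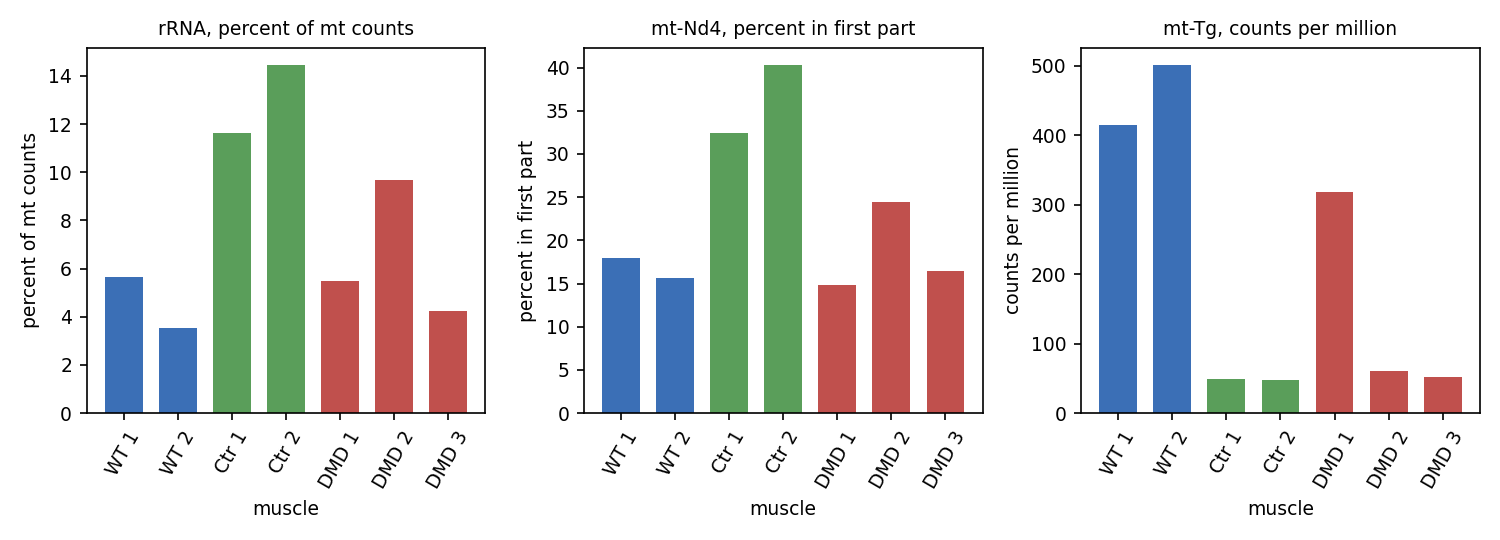
Bars give 3 measures for each muscle (x axis): rRNA rows as a percent of mitochondrial counts, the percent of mt-Nd4 reads in its first 876 bases, and mt-Tg in CPM. The first 2 measures are highest in both Ctr muscles, followed by DMD replicate 2, and the last is high in both WT muscles and DMD replicate 1.

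To compare the groups gene by gene, counts summed per muscle were fitted over all genes with edgeR's quasi-likelihood test, using TMM scaling, and those with a Benjamini-Hochberg adjusted p below 0.05 are the called genes. TMM divided the libraries by factors of 0.8039 and 0.6688 (WT), 1.042 and 0.9617 (Ctr) and 1.41, 1.338 and 0.9835 (DMD), so a fitted fold is not the ratio of the CPM values above. Without TMM the median log2 fold of all genes was 0.33 for DMD against Ctr, 0.82 for DMD against WT and -0.46 for WT against Ctr, against 0.02, 0.07 and -0.01 with it, and the share of higher genes among all calls was 85.8%, 97.2% and 7.51% against 56.8%, 54.4% and 46.9%. The folds that follow are thus relative to the bulk of genes. Of the 37 mitochondrial rows, 35 passed the filter on low counts, and mt-Tf and mt-Tl2 did not.

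Against Ctr, the rows of both rRNAs, of 2 complex I mRNAs and of 4 tRNAs were called lower in DMD, and none of the 35 rows was called higher. This made 8 of 35 rows called, against 12.6% of all 13746 genes called in either direction, 5.44% lower and 7.17% higher. mt-Rnr1 was lower by a log2 fold of -1.47 ± 0.26 (SE, edgeR adjusted p = 0.0129) and mt-Rnr2 by -1.34 ± 0.30 (edgeR adjusted p = 0.0253). Among the mRNAs mt-Nd5 was lower at -1.08 ± 0.31 (edgeR adjusted p = 0.0486) and mt-Nd6 at -1.02 ± 0.20 (edgeR adjusted p = 0.0167). For these 4 genes the CPM of DMD and Ctr did not overlap. That describes the values behind the calls and adds no support, and the share of all genes without overlap was not counted. The other 11 protein-coding genes did not pass: their log2 folds ran from -0.83 ± 0.35 for mt-Nd4l to 0.59 ± 0.54 for mt-Nd3, and the median over all 13 was -0.11. That median took either sign when 1 DMD muscle was left out: it was 0.04 without replicate 1, 0.10 without replicate 2 and -0.56 without replicate 3. Without replicate 3 all 13 were below 0 and 4 were called lower. Over all genes 1392 of 13545 were called lower there, against 748 of 13746 with all muscles. Without TMM, 8 of the 13 log2 folds were above 0 in place of 4, and mt-Nd1, mt-Co1, mt-Co3 and mt-Cytb changed sign.

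The 4 called tRNAs were mt-Tl1, mt-Ti, mt-Tm and mt-Tc. mt-Ti was at 440.0 and 295.5 CPM in Ctr and 187.2, 171.7 and 175.1 in DMD, with a log2 fold of -1.32 ± 0.24 (edgeR adjusted p = 0.0134). mt-Tm was at 405.0 and 374.1 in Ctr and 156.0, 300.9 and 109.9 in DMD, with -1.38 ± 0.32 (edgeR adjusted p = 0.0265). Neither overlapped between the 2 groups, on the same values that gave the calls. mt-Tl1 was at 90.47 and 59.93 in Ctr and 51.72, 66.55 and 22.33 in DMD, and these ranges overlapped (log2 fold of -1.04 ± 0.30, edgeR adjusted p = 0.0498). mt-Tc rested on few reads: 9.0 and 4.0 counts in Ctr and 4.5, 1.08 and 0 in DMD (edgeR adjusted p = 0.0482), too few to give a fold.

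The calls against Ctr rest on both Ctr muscles. Without Ctr replicate 1 no mitochondrial row was called by edgeR, though 7 had an unadjusted p below 0.05, and calls over all genes went from 1733 to 56. Without Ctr replicate 2 there was 1 mitochondrial call among 959 in all, and without DMD replicate 1, a library that stands apart, there were 2 among 583. Without either WT muscle there were 4, among 722 (replicate 1) or 725 (replicate 2) in all; the WT muscles entered this contrast through the shared spread, the filter and the scaling. For mt-Rnr1 the log2 fold became -1.71 in the absence of Ctr replicate 1 (edgeR adjusted p = 0.0679) and -1.20 in the absence of Ctr replicate 2 (edgeR adjusted p = 0.0601).

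The comparison with WT gave a broader fall. All 35 rows tested had a log2 fold below 0, and 27 were called lower, against 15.2% of all genes called in either direction, 6.91% lower and 8.25% higher. By class these were 7 of 13 protein-coding genes, 1 of 2 rRNAs and 19 of 20 tRNAs tested. Without TMM 18 rows were called lower, 5 of them protein-coding, beside 144 of all 13746 genes called lower and 5004 higher. The median over the 13 protein-coding genes was then -0.59 in place of -1.32, with 12 of them below 0. mt-Atp8 (-1.86 ± 0.21, edgeR adjusted p = 0.00242) and mt-Atp6 (-1.74 ± 0.30, edgeR adjusted p = 0.0101) fell most among the mRNAs. The other called mRNAs were mt-Nd2 (-1.62 ± 0.41), mt-Nd4 (-1.49 ± 0.32), mt-Nd1 (-1.47 ± 0.28), mt-Nd6 (-1.38 ± 0.20) and mt-Nd5 (-1.32 ± 0.31), with edgeR adjusted p from 0.00496 to 0.0299. All 7 called mRNAs belonged to complexes I and V, though a difference between complexes was not tested. The split depended on the method: 12 of the 13 were called with DESeq2 and 11 without the filter on low counts. Of all 26383 genes, 938 were called lower with DESeq2 and 1036 without the filter. The complex IV genes mt-Co1 (-1.07 ± 0.36), mt-Co2 (-0.84 ± 0.32) and mt-Co3 (-1.16 ± 0.39), mt-Cytb (-1.14 ± 0.38), mt-Nd4l (-1.03 ± 0.35) and mt-Nd3 (-0.59 ± 0.53) did not pass. Their edgeR adjusted p was 0.069 to 0.0737 for mt-Co3, mt-Co1, mt-Cytb and mt-Nd4l, 0.105 for mt-Co2 and 0.471 for mt-Nd3.

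**Figure D4:**
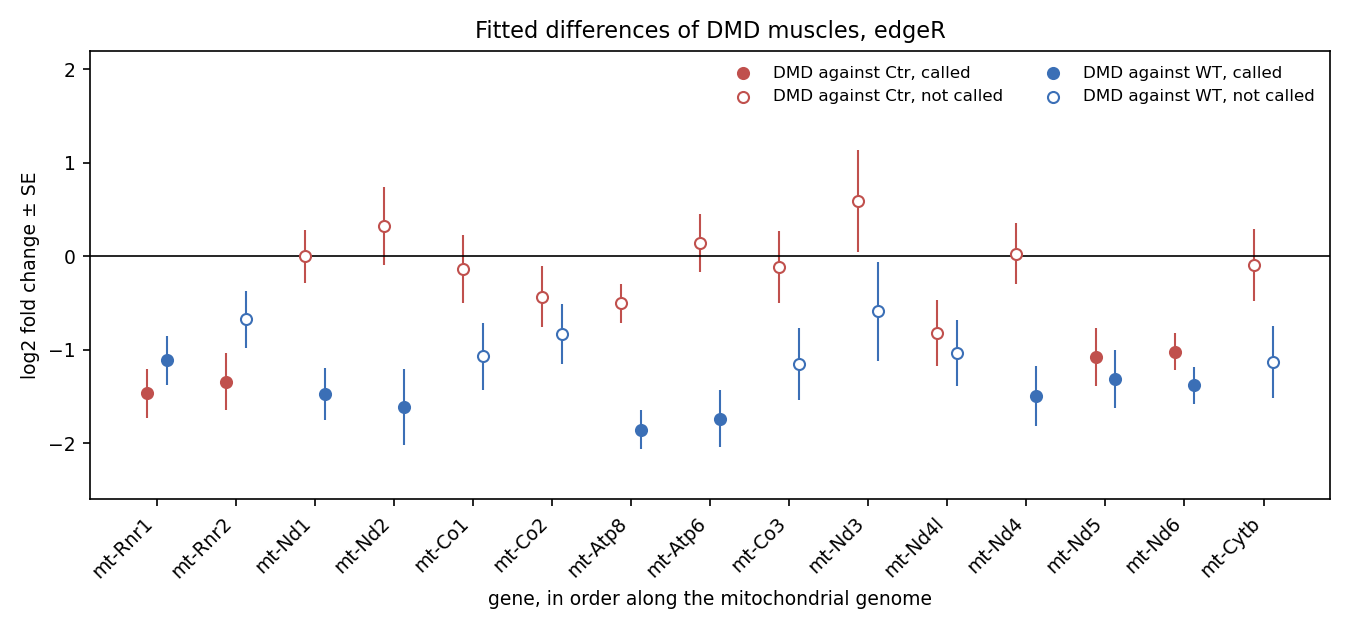
Points give the log2 fold change of DMD against Ctr (red) and against WT (blue) with its standard error as bars (y axis) for each gene in genome order (x axis); filled points are called at an edgeR adjusted p below 0.05. All 15 blue points lie below 0, while the red points of the rRNAs, mt-Nd5 and mt-Nd6 are the ones called.

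mt-Rnr1 was lower than in WT by -1.11 ± 0.26 (edgeR adjusted p = 0.0238), and mt-Rnr2 did not pass at -0.68 ± 0.30 (edgeR adjusted p = 0.15). The median over the 20 tRNAs tested was -2.15, against -1.32 over the 13 protein-coding genes and 0.07 over all genes. Besides those of the first list, called tRNAs included mt-Tg (-2.54 ± 0.58), mt-Tw (-1.92 ± 0.34), mt-Tv (-1.80 ± 0.49) and, on the minus strand, mt-Tp (-3.48 ± 0.58), mt-Te (-2.70 ± 0.29), mt-Ty (-2.54 ± 0.55), mt-Ta (-2.39 ± 0.42), mt-Tn (-1.92 ± 0.57) and mt-Tq (-1.79 ± 0.39). mt-Tc was called on 6.41 and 11.75 counts in WT and the few DMD counts given above. The others called were mt-Ts2 (-2.90 ± 0.48), mt-Tr (-2.56 ± 0.44), mt-Th (-2.34 ± 0.49), mt-Ti (-2.26 ± 0.24), mt-Tt (-2.04 ± 0.27), mt-Tl1 (-1.84 ± 0.30), mt-Tm (-1.84 ± 0.32), mt-Tk (-1.72 ± 0.25) and mt-Td (-1.43 ± 0.23). mt-Ts1 was the tRNA tested that did not pass (-0.65 ± 0.44). With only 1 WT muscle kept, the count of called rows was 5 (without WT replicate 1) or 4 (without WT replicate 2), and calls over all genes went from 2084 to 78 and 68. The folds stayed below 0 for all 13 protein-coding genes, with medians of -1.38 and -1.21, and 31 and 28 rows had an unadjusted p below 0.05. Without DMD replicate 1 it was 20, among 893 in all. mt-Tg alone, where DMD replicate 1 was near WT, had a log2 fold of -3.70 without that muscle. The comparisons with Ctr and with WT share the 3 DMD muscles.

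Between the 2 groups that are not labelled DMD, 1 of 35 rows was called, against 0.356% of all genes called in either direction, 0.167% higher and 0.189% lower. mt-Tw, the tryptophan tRNA behind mt-Nd2, was at 255.0 and 348.2 CPM in WT and 79.66 and 74.83 in Ctr, a log2 fold of 2.44 ± 0.40 (edgeR adjusted p = 0.0464). It was not called when any 1 of these 4 muscles or DMD replicate 1 was left out. Without DMD replicate 3, 16 mitochondrial rows were called, while calls over all genes went from 49 to 513. All 13 protein-coding genes had a log2 fold above 0, with a median of 1.04, and 8 of them had an unadjusted p below 0.05. None passed after adjustment with edgeR, whereas DESeq2 called 5, among 465 of all 26383 genes. Without TMM 9 of the 13 were above 0. mt-Atp8 missed the threshold by little (1.35 ± 0.24, edgeR adjusted p = 0.0504), and mt-Rnr1 and mt-Rnr2 were at -0.35 ± 0.29 and -0.66 ± 0.34 (edgeR adjusted p = 0.558 and 0.329).

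The nuclear partners were read from the same fit, in lists fixed by function. Of 79 nuclear subunits of complexes I to V, 5 were lower in DMD than in Ctr and none was higher, beside 5.44% of all genes called lower and 7.17% higher; 63 of the 79 had a log2 fold below 0 and the median was -0.28, against 0.02 over all genes. The 5 were Ndufa10 of complex I (-0.87 ± 0.22), Sdhd of complex II (-1.18 ± 0.29), Uqcrc1 of complex III (-0.84 ± 0.21) and Cox4i1 (-0.94 ± 0.22) and Cox4i2 (-1.08 ± 0.30) of complex IV, with edgeR adjusted p from 0.0282 to 0.0439. Cox4i2 lies under the 5 CPM set for named genes and is named after its values were seen. All 15 nuclear complex V subunits had a log2 fold below 0, with a median of -0.34, and did not pass. Of the mitochondrial complex V genes, mt-Atp6 was above 0 (0.14 ± 0.31) and mt-Atp8 below (-0.50 ± 0.21), and neither passed. Without Ctr replicate 1, DMD replicate 1 or either WT muscle none of the 79 was called by edgeR, whereas the count was 1 when Ctr replicate 2 was left out, 2 for DMD replicate 2 and 11 for DMD replicate 3. Calls over all genes were 770 without DMD replicate 2 and 3425 without DMD replicate 3, against 1733 with all muscles. Uqcrc1 was at 428.3 and 427.2 CPM in Ctr and 287.7, 318.2 and 269.4 in DMD. Its WT muscles were at 311.6 and 222.5, overlapping DMD in these unscaled CPM, while TMM raises WT levels relative to DMD. In the fit of DMD against WT all 9 nuclear complex III subunits had a log2 fold below 0, with a median of -0.67.

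Against WT, 29 of the 79 nuclear subunits were lower and none higher, beside 6.91% of all genes called lower and 8.25% higher. The median was -0.66 against 0.07 over all genes. The calls were 16 of 36 in complex I, 2 of 4 in complex II, 4 of 9 in complex III, 3 of 15 in complex IV and 4 of 15 in complex V. The summed level of the 79 was 65890 and 71180 CPM of nuclear counts (WT), 55910 and 53860 (Ctr) and 48360, 59750 and 50350 (DMD). WT was above the other 5 muscles here too.

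Of 29 tested genes that transcribe, process or maintain the mitochondrial genome, 1 was lower in DMD than in Ctr, a share no larger than the 5.44% of all genes called lower. This was Tfb2m, a transcription factor needed to start mitochondrial transcription, at 6.662 and 4.763 CPM (WT), 15.15 and 9.735 (Ctr) and 6.352, 8.049 and 5.912 (DMD). In these unscaled CPM WT and DMD overlapped, while TMM raises WT levels relative to DMD. Tfb2m was lower in DMD than in Ctr by a log2 fold of -1.18 ± 0.24 (edgeR adjusted p = 0.018). It was not called without Ctr replicate 1 (-0.89) or DMD replicate 1 (-1.03), and 4 genes of the list were called without DMD replicate 3. Without DMD replicate 3, 3425 of all 13545 genes were called in either direction. With all muscles, Polrmt, the mitochondrial RNA polymerase, was at -0.34 ± 0.20 (edgeR adjusted p = 0.282). Tfam, which packages and helps transcribe mitochondrial DNA, was at -0.37 ± 0.22 (edgeR adjusted p = 0.276). The RNA-binding pair that stabilises mitochondrial mRNAs did not pass: Lrpprc was at -0.52 ± 0.21 (edgeR adjusted p = 0.119) and Slirp at 0.29 ± 0.19 (edgeR adjusted p = 0.322). Mtpap, the mitochondrial polyA polymerase, was at -0.18 ± 0.20 (edgeR adjusted p = 0.564).

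Among 7 regulators of mitochondrial biogenesis 3 were lower in DMD than in Ctr and none was higher, beside 5.44% and 7.17% of all genes. Ppargc1a, the coactivator PGC-1α, was at 14.71 and 9.47 CPM (WT), 60.61 and 25.69 (Ctr) and 13.65, 16.37 and 15.9 (DMD) (-1.75 ± 0.33 against Ctr, edgeR adjusted p = 0.0148). The Ctr muscles were far apart and above the rest, and the fold was -1.08 and not called without Ctr replicate 1. Esrra, a nuclear receptor that works with Ppargc1a, was at 11.59 and 8.047 (WT), 30.24 and 17.02 (Ctr) and 12.03, 12.61 and 12.21 (DMD) (-1.21 ± 0.26, edgeR adjusted p = 0.0212). Perm1, a muscle regulator of oxidative genes, was at 24.92 and 25.02 (WT), 38.14 and 25.2 (Ctr) and 16.4, 11.27 and 10.03 (DMD) (-1.63 ± 0.22, edgeR adjusted p = 0.00542). Perm1 was lowest in all 3 DMD muscles. In these unscaled CPM Ppargc1a in DMD was in or just above the WT range, and Esrra in DMD was above both WT muscles. TMM raises WT levels relative to DMD, so the order of these groups can change with scaling. In the fit of DMD against WT, 5 of the 7 regulators were below 0, with a median of -0.38. There 1 was called lower, beside 6.91% of all genes. Perm1 (-1.37) and Esrra (-0.81) also lost the call without Ctr replicate 1, and Esrra without DMD replicate 1 or 2 as well.

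Of 78 mitochondrial ribosomal proteins, which assemble with the 2 rRNAs, Mrpl33 was higher in DMD than in Ctr (1.01 ± 0.22, edgeR adjusted p = 0.0225), Mrps6 (-0.77 ± 0.19) and Mrpl34 (-0.73 ± 0.20) were lower, and the median was -0.29. These 3 calls are a smaller share than the 12.6% of all genes called. Mrpl33 was at 45.2 and 47.37 CPM in Ctr, 112.5, 152.0 and 84.92 in DMD, and 76.87 and 64.87 in WT. None of these 3 calls held when a Ctr or a WT muscle was left out, and those of Mrps6 and Mrpl34 also ended without DMD replicate 1 or 2. None of 19 mitochondrial aminoacyl-tRNA synthetases, which charge the tRNAs, was called by edgeR or DESeq2, and 4 had an unadjusted p below 0.05 with edgeR (3 with DESeq2).

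Along the muscle the mitochondrial share fell from the first to the last sections in most muscles. In the first 20% of the kept sections it was 43.75% and 46.99% (WT), 33.18% and 29.86% (Ctr) and 33.18%, 26.78% and 34.76% (DMD). In the last 20% it was 39.82% and 41.83% (WT), 27.52% and 28.55% (Ctr) and 24.02%, 22.4% and 35.53% (DMD). The difference was thus below 0 in 6 of 7 muscles, from -9.16 points in DMD replicate 1 to -1.30 in Ctr replicate 2, and 0.77 in DMD replicate 3. Over all kept sections, Spearman's rho of the share with section order was -0.65 and -0.576 (WT), -0.526 and 0.0253 (Ctr) and -0.813, -0.507 and 0.033 (DMD). Ctr replicate 2 thus had no steady fall. The mean difference was -4.12 points ± 3.18 (SD, n = 7 muscles, two-sided exact sign-flip permutation test, p = 0.03125). With each section given equal weight the mean was -3.61 (exact p = 0.0625), and without any 1 of the 6 muscles that fell it was between -4.59 and -3.28 (exact p = 0.0625 each time). The mean was -4.54 points in WT, -3.48 in Ctr and -4.26 in DMD, and DMD differed from Ctr by -0.774 points (exact permutation p = 1).

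**Figure D5:**
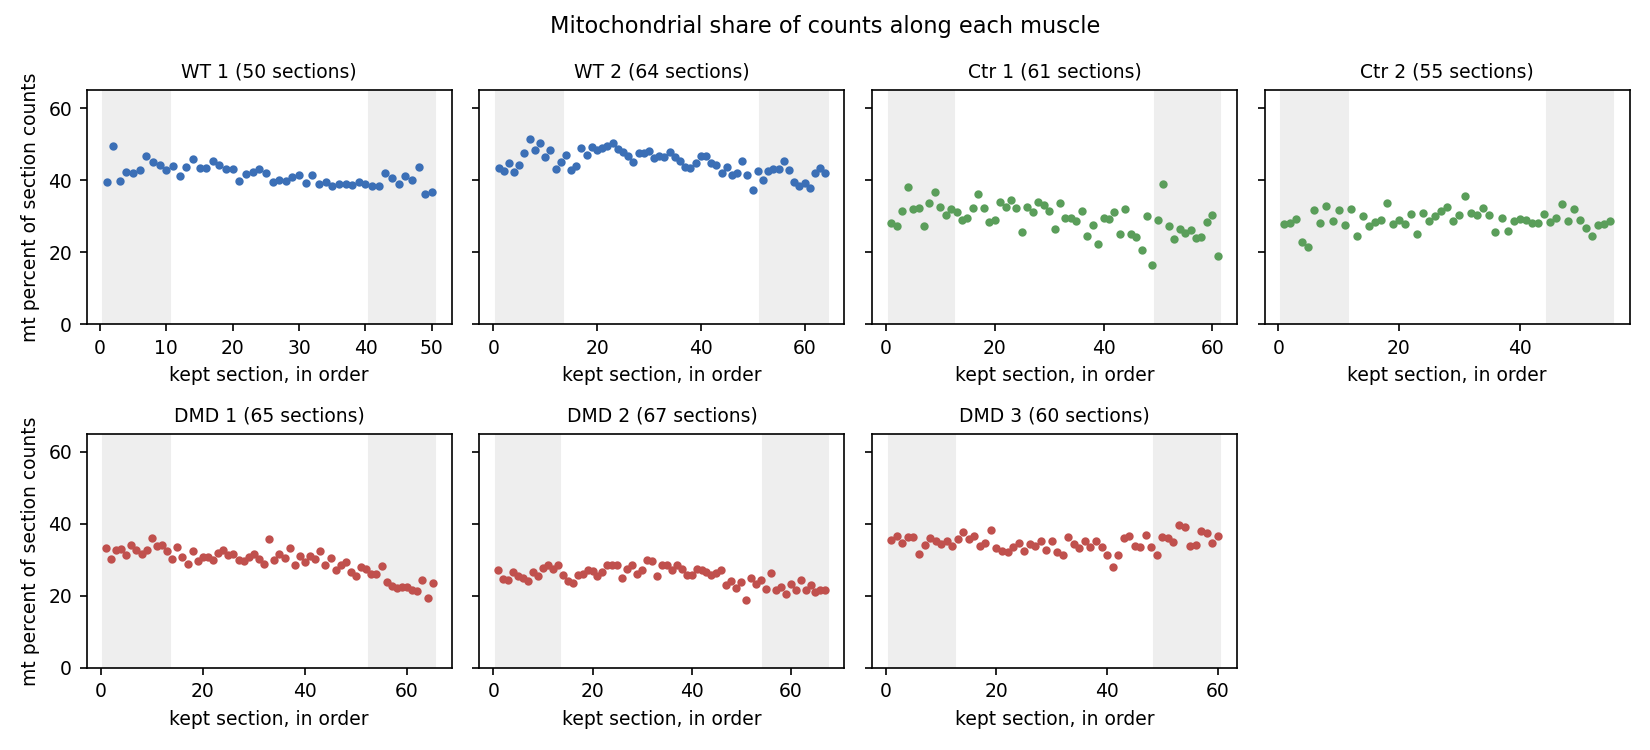
Each point is 1 kept section: its place in the section order (x axis) and the percent of its counts on mitochondrial rows (y axis), with 1 panel per muscle and the first and last 20% shaded. The share drops towards the last sections in both WT muscles, Ctr replicate 1 and DMD replicates 1 and 2, and not in DMD replicate 3.

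Within each muscle single sections varied moderately. The lowest, median and highest section were at 36.25%, 41.38% and 49.67% in WT replicate 1, 16.36%, 29.6% and 39.08% in Ctr replicate 1, and 19.42%, 30.18% and 36.13% in DMD replicate 1. DMD replicate 3 was the most even muscle, with an SD over 60 sections of 2.124 points, against 4.402 in Ctr replicate 1. In DMD replicate 1 the share went from 33.18% in the first 20% of sections through 31.19%, 30.91% and 28.73% to 24.02% in the last, and the macrophage markers went from 1030 to 4054 and the matrix markers from 2280 to 5039 CPM of nuclear counts. In DMD replicate 2, where the share was also lower in the last sections, macrophage markers went from 1661 to 1354 and matrix markers from 3318 to 3144. The slow or oxidative marker sum, which is mostly Mb, was lower in the last than in the first sections of all 7 muscles, going from 6102 to 4485 in WT replicate 1 and from 2081 to 594.1 in DMD replicate 1. Erythroid markers were lower as well, except in DMD replicate 3, where they went from 12610 to 16830. Other lists were higher in the last sections. Fibre markers were so in 5 muscles, going from 159000 to 187300 in WT replicate 1, and not in DMD replicates 1 and 3. Adipocyte markers (5 genes) were so in both WT and both Ctr muscles and DMD replicate 3, going from 4008 to 7709 in WT replicate 1. Tendon markers (6 genes) were so in the same 5 muscles, going from 38.29 to 191.6 in WT replicate 1. The part of these cell type markers in the fall of the mitochondrial share was not tested.

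Gene by gene, the last 20% of sections was set against the first 20% within each muscle, a comparison added after the share was seen. All 30 rows tested had a log2 fold below 0, and 6 of 30 were called lower, against 0.876% of all 9703 genes called and 0.608% called lower. These were mt-Rnr1 (-0.56 ± 0.13, edgeR adjusted p = 0.0393) and 5 tRNAs: mt-Tp (-1.31 ± 0.20), mt-Tv (-0.70 ± 0.12), mt-Tm (-0.66 ± 0.12), mt-Ti (-0.54 ± 0.12) and mt-Tl1 (-0.49 ± 0.11), with edgeR adjusted p from 0.00174 to 0.043. No protein-coding gene passed, though all 13 were below 0 with a median of -0.31 and 7 had an unadjusted p below 0.05. They ranged from -0.25 ± 0.15 for mt-Atp6 to -0.45 ± 0.21 for mt-Nd6. Of 79 nuclear respiratory subunits 78 were below 0 as well, with a median of -0.28; none passed with edgeR, and 50 had an unadjusted p below 0.05. The mitochondrial calls dropped to 1 without WT replicate 1, Ctr replicate 1 or Ctr replicate 2, and to 2 without WT replicate 2, while calls over all genes went from 85 to between 18 and 31. The difference between DMD and Ctr in this fall gave no called row and no row with an unadjusted p below 0.05 (edgeR), against 0% of all genes called.

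Between both ends together and the middle no difference passed a test. The share of the outer 20% at each end minus that of the middle sections was -0.541 points ± 1.14 (SD, n = 7; exact sign-flip permutation p = 0.266), below 0 in 5 of 7 muscles. None of 33 rows was called with edgeR, against 0.514% of all genes, and none of 37 with DESeq2; 4 rows had an unadjusted p below 0.05 with edgeR and 1 with DESeq2. For the difference between DMD and Ctr, none of 33 rows with edgeR or of 37 with DESeq2 was called or had an unadjusted p below 0.05, against 0.0245% of all genes called.

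Across the sections of a muscle, the mitochondrial share went with the summed level of the nuclear respiratory subunits. Spearman's rho over sections was 0.404 and 0.51 (WT), 0.492 and 0.303 (Ctr) and 0.893, 0.722 and 0.414 (DMD), over 50 to 67 sections each. Sections of 1 muscle share its library preparation and lie next to each other, so these values describe the muscles and carry no test. The rho with the section's total count was between -0.342 and 0.585 and did not keep 1 sign. Of 76 such subunits with at least 50 CPM of non-mitochondrial counts in every muscle, 73 had a median rho above 0 (96.1%), against 57.6% of all 1459 genes of that level.

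The nuclear genes most like the mitochondrial share were chosen by their median rho over the 7 muscles. H19, an imprinted noncoding RNA, was first at 0.653, followed by Ckmt2 (0.629), the mitochondrial creatine kinase of muscle, Fabp3 (0.623), a fatty acid carrier of oxidative fibres, Mdh1 (0.621), the cytosolic malate dehydrogenase, and Hbb-bt (0.61), a beta globin. All 5 had a rho above 0 in all 7 muscles, though for Fabp3 it was 0.0133 in DMD replicate 3. The least alike were Pvalb (-0.557), the calcium buffer of fast fibres, Myh4 (-0.551), the myosin of the fastest fibres, Ckm (-0.526), the cytosolic creatine kinase, Hrc (-0.479), a calcium-binding protein of the sarcoplasmic reticulum, and Pfkm (-0.474), the muscle phosphofructokinase of glycolysis. Myh4 and Ckm were below 0 in all 7 muscles. Hrc was below 0 in all but DMD replicate 1 (0.000962). Pfkm was above 0 in both Ctr muscles (0.224 and 0.159) and DMD replicate 1 (0.161), and below 0 in the others. Pvalb was below 0 in the 4 muscles not labelled DMD, from -0.661 to -0.557, and above 0 in the 3 DMD muscles, from 0.151 to 0.35, a split whose difference was not tested.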

How the data were processed

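The 7 muscles, their groups and the sections are described above. The authors' deposited tables hold estimated counts per gene and section, made per the file headers with featureCounts 2.0.1, which divided multiply placed and overlapping reads into fractions. The submitters' processing notes name STAR 2.7.7a and the build GRCm38. The WT tables used Ensembl release 102 with added sequences and the others another annotation of GRCm38, per the file headers. How UMIs entered the counts is not given in the sources used here.

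Sections were kept with at least 1000 counts and 20% of their muscle's median. Counts of kept sections were summed per muscle, rounded to whole numbers, filtered with filterByExpr and fitted with edgeR 4.0.16 (quasi-likelihood, TMM, Benjamini-Hochberg adjustment over all genes); DESeq2 1.42.0, other scalings, filters and leaving out each muscle were alternatives, and the fit was tested on simulated data. Shares were compared by exact permutation over muscles, two-sided. Of muscles left alone in their group, the spread was assumed to be that of the other groups. Rounding, fractional counting and depth limit the precision of tRNA rows most.

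The members and gene lists were chosen with earlier results of these data known. All protein-coding and rRNA genes were named. Of the tRNAs, the 5 with the highest mean and any called were named. Of the nuclear lists, up to 4 called genes per list and direction with at least 5 CPM were named, besides Polrmt, Tfam, Lrpprc, Slirp, Mtpap and Ppargc1a, which were always named. The likeness to the mitochondrial share was ranked over genes of at least 50 CPM, naming 5 at each end.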

Additional observations from a re-analysis of the deposited data

Results flagged for a closer look

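Among 103 sections left out for low counts, 1 column of DMD replicate 3 (number 214) held 823 counts, of which 782.5, or 95.1%, lay on mitochondrial rows, above the level in any control section of this kind. Of these, 781.5 were on mt-Nd2. The highest mitochondrial share among the left-out WT and Ctr columns with at least 100 counts was 48.0%. This column entered no comparison.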

How the results depend on the processing

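With other settings, single-gene results kept their direction and side of the threshold in 441 cases, passed it in 3, lost it in 20 and turned in 13; when 1 muscle was left out these numbers were 400, 3, 161 and 17. All turned results were uncalled differences between DMD and Ctr.

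For DMD against Ctr the 8 mitochondrial calls became 4 without TMM and 15 without the filter. They became 13 with the replicate block (1 of them higher) and 3 with only Ctr and DMD muscles. Calls over all genes went from 1733 to 1293, 2998 (of 26383), 3891 and 683 in the same order. For WT against Ctr the 1 call became 2 with nuclear scaling (with or without the copies), with all sections and with the copies added. It became 5 without TMM, 19 without the filter, 17 with the replicate block and 14 with DESeq2. Calls over all genes went from 49 to between 51 and 61 for the settings with 2 calls. For the others they were 213, 858, 793 and 465 in the same order. Outer against middle sections gave 1 call in place of 0: mt-Nd6 with 3 equal regions, and mt-Tm with nuclear scaling or no filter. Calls over all genes were 63 before and 38, 63 and 135 at these settings. For DMD against Ctr the 5 nuclear respiratory calls became 14 with the block and 8 with DESeq2. The 1 machinery call became 4 without the filter and 5 with the block. Calls over all genes were 3891 with the block, 1887 with DESeq2 and 2998 without the filter. The last minus first share was -3.61 with equal section weights. Nuclear scaling without the copies and the fit of last against first sections were chosen after seeing the data. The cause of these changes was not tested.

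Replicate numbers are shared between groups, but the correlation of same-numbered muscles' deviations was 0.00602 to 0.189 and not above 0.1 in every pair, so the block only matches a number. With it, the median log2 fold of the 13 protein-coding genes for DMD against Ctr was -0.57.

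Leaving out 1 muscle gave 0 to 11 mitochondrial calls for DMD against Ctr, 4 to 31 for DMD against WT, 0 to 16 for WT against Ctr, 1 to 8 for last against first and 0 to 1 for outer against middle sections (mt-Tm without DMD replicate 3). It gave 0 to 11 nuclear respiratory calls, 0 to 4 machinery calls, a share of DMD minus Ctr of -2.149 to 2.147 points and of last minus first of -4.932 to -3.277 points.

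The log2 fold of mt-Nd1 for DMD against Ctr was 0.002999 with nuclear scaling, 0.005498 with that and no copies, 0.3037 without TMM, 0.04639 without the filter, 0.004333 with only Ctr and DMD, and -0.1618 to 0.1632 without 1 muscle. Without TMM mt-Co1 was at 0.08982, mt-Co3 at 0.1142 and mt-Cytb at 0.1302. With the block mt-Nd2 was at -0.194, mt-Atp6 at -0.02959, mt-Nd3 at -0.2486 and mt-Nd4 at -0.2461, and with the copies added mt-Nd4 was at -0.1277. Without 1 muscle the ranges were -0.1895 to 0.6319 for mt-Nd2, -0.588 to 0.1013 for mt-Co1, -0.098 to 0.4225 for mt-Atp6, -0.5896 to 0.1179 for mt-Co3, -0.2386 to 0.975 for mt-Nd3, -0.2418 to 0.257 for mt-Nd4 and -0.5646 to 0.1525 for mt-Cytb.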
